A study of Arabidopsis thaliana with 6 samples.

Results

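The growth-regulating factors GRF1 to GRF9 and their cofactor GIF1 were examined in inflorescences of Arabidopsis thaliana. These 10 genes were taken by locus from a table that held values for 32627 genes, and each was read by 1 feature with a value on every array. The family was selected on measured values: it was singled out with the dexamethasone differences of these same arrays in view, among which that of GRF7 was one of the largest. Those differences are therefore given for the members as a description. Where members under the limma threshold are counted, the count repeats that selection and is not a test of the family. The 14-3-3 proteins that share the GRF name stem were left out.

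All plants were Landsberg erecta (Ler) carrying 35S::SUP-GR, a transgene in which a broadly active viral promoter drives the flower zinc-finger protein SUPERMAN fused to the steroid-binding part of the glucocorticoid receptor. Such a fusion stays largely outside the nucleus until the steroid dexamethasone (DEX) is supplied. Plants grew in continuous light at 22 °C, and inflorescences were dipped for 1 min either in 10 µM DEX (3 arrays) or in the matching amount of ethanol, called Mock (3 arrays), both with 0.015% Silwet L-77. Buds younger than flower stage 10 were harvested 4 hours later, and the labels state that DEX reduces organ size in these plants. DEX-treated plants without the transgene were not analysed here, so the fusion protein and DEX itself cannot be told apart.

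GRF proteins are plant transcription factors that keep cells of young leaves and floral organs dividing, and thereby set organ size. Each carries a QLQ domain, which binds a GIF cofactor, and a WRC domain, which binds DNA. GIF1, also called AN3 or ANGUSTIFOLIA3, binds no DNA itself and brings SWI/SNF chromatin remodelling complexes to GRF-bound genes. The microRNA miR396 cleaves most GRF transcripts as tissues mature, while GRF5 and GRF6 lack its target site.

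After DEX, GRF7 and GRF6 were much lower, GRF5, GRF8 and GRF3 moderately lower, and GIF1 was at the level of Mock. GRF7 intensity after DEX was 8.61% of that in Mock, GRF6 20.2%, GRF5 58.2%, GRF8 70.2% and GRF3 71.1% (ratio of geometric mean intensities, n = 3 per group). The difference, DEX minus Mock, was below 0 for 9 of the 9 GRF genes, where 49.1% of all genes were below 0. In 6 of these 9, every DEX array lay below every Mock array, as it did for 9.2% of all genes. The median difference was -0.37 on the log2 scale over the 10 members and 0.01 over all genes. These counts restate the values by which the family was chosen, and nothing further is read from them.

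**Figure D1:**
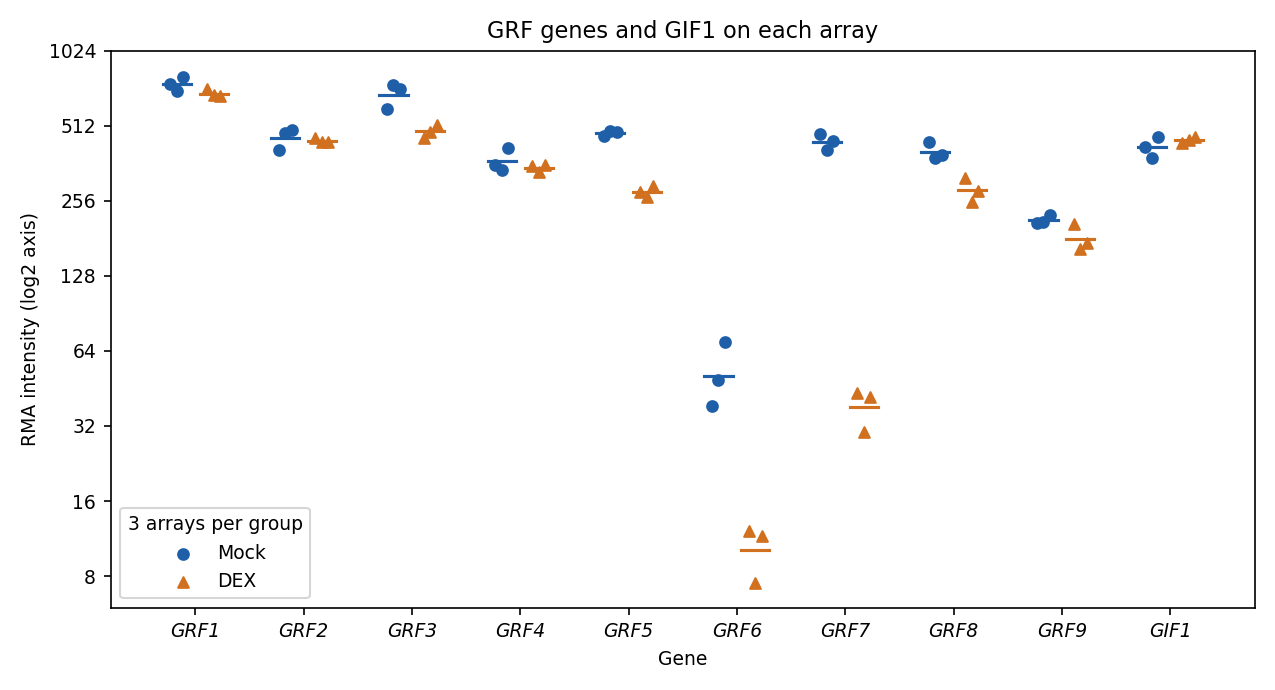
RMA intensity (log2 axis) of each GRF gene and GIF1 on the 3 Mock arrays (circles) and the 3 DEX arrays (triangles), with horizontal bars at the means of the log2 values. GRF7 and GRF6 show wide gaps between the groups, GRF3, GRF5, GRF8 and GRF9 narrower ones, and the groups overlap for GRF1, GRF2, GRF4 and GIF1. Heights may be compared between groups of one gene but not between genes, since each gene is read by its own probes.

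The signal of a spot depends on its probes, so levels are compared between arrays and not between genes; where a signal sits in the range of the table is given only to say whether it was dim. On each array the median intensity lay between 74.2 and 77.3. All 6 floral identity genes examined gave clear signal, brighter than at least 66.0% of features that stood for a gene. The root genes WOX5 and RHD6 were near the bottom of the range, at mean intensities of 1.58 to 2.65. The green tissue genes examined lay at both ends, RBCS1A brighter than 99.9% of these features and LHCB1.1 brighter than 3.70%. A dim signal alone is therefore not read as absence of a transcript. The summed intensity of the flower genes was 4761 to 5078 in Mock and 3837 to 4069.9 in DEX, without overlap. Among them LFY, SEP3 and AP1 were at -0.82 (SE 0.18), -0.47 (SE 0.16) and -0.28 (SE 0.11) on the log2 scale, DEX minus Mock, and none passed the threshold (limma adjusted p = 0.251, 0.413 and 0.477). The part of these shifts in the GRF values was not tested; in bulk tissue, fewer cells of a type and less RNA per cell cannot be told apart. The 3 mature pollen genes summed to 552 to 750.2 in Mock and 530 to 737 in DEX. That sum joins differences of either sign. VGD1 was at -0.52 (SE 0.27), AGP6 at 0.36 (SE 0.40) and AGP11 at 0.31 (SE 0.29), each with overlapping groups. Mock replicate 1 stood apart in its organelle transcripts, with a median deviation of -0.52 for chloroplast loci against 0.03 to 0.21 on the other arrays, and member values without that array are given where they matter.

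GRF7 (AT5G53660) has been described in Arabidopsis as a repressor of stress-response genes, among them DREB2A. Its intensities were 475, 410.2 and 444 in Mock replicates 1 to 3 and 43.5, 30.2 and 42.0 in DEX replicates 1 to 3. The lowest Mock array was thus 9.43 times the highest DEX array, whereas the Mock arrays differed among themselves by at most 1.16 times and the DEX arrays by at most 1.44 times. On the log2 scale Mock was at 8.79 ± 0.11 and DEX at 5.25 ± 0.29 (SD, n = 3). GRF7 thus differed by -3.54 (SE 0.18), or 11.6-fold. Of all genes, 1 had a difference further below 0 than GRF7. The GRF7 difference ranged from -3.63 to -3.37 with each array left out. This contrast chose the family, so a threshold on it cannot test the members, and their count is a description only. GRF7 was the 1 member of 10 under a limma adjusted p of 0.05 and lower, as were 0.049% of all genes. That number depended on the setting. It was 4 with a trended and robust variance prior, 3 with 16 added to each intensity and 2 among genes above the median intensity. It was 0 with a replicate block or with any 1 array left out. Nothing is read from these counts.

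GRF6 (AT2G06200), a small member of the family without the miR396 site, had the next largest difference. Its intensities were 38.3, 48.8 and 69.4 in Mock and 12.2, 7.54 and 11.6 in DEX. The signal was dim, below the table's median of 72.9 (mean intensity per gene) on every array, and the Mock arrays spread over 1.81 times. The groups were nevertheless separate, the lowest Mock value being 3.15 times the highest DEX value. On the log2 scale Mock was at 5.66 ± 0.43 and DEX at 3.35 ± 0.38 (SD, n = 3), and GRF6 differed by -2.31 (SE 0.29). How large it looked depended on how dim values were handled: with 16 added to each intensity the difference was -1.35, and without Mock replicate 1 it was -2.51.

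GRF5 (AT3G13960), which also lacks the miR396 site and promotes cell division in leaf primordia, had narrow and well separated groups. It was at 466, 487 and 485 in Mock and at 279, 265 and 293 in DEX. The Mock arrays differed by at most 1.05 times, while the lowest Mock value was 1.59 times the highest DEX value. On the log2 scale Mock was at 8.90 ± 0.04 and DEX at 8.12 ± 0.07 (SD, n = 3), and GRF5 differed by -0.78 (SE 0.10). With each array left out in turn the difference stayed between -0.82 and -0.75.

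GRF8 (AT4G24150) and GRF3 (AT2G36400), both with a miR396 site, had similar, smaller differences. GRF3 is a promoter of leaf and cotyledon growth that acts redundantly with GRF1 and GRF2. GRF8 was at 439.8, 379 and 390.0 in Mock and at 317, 254 and 279 in DEX. GRF3 was at 597, 744 and 717 in Mock and at 459, 484 and 516 in DEX. Neither gene's groups overlapped, but the gap was 1.20 times for GRF8 and 1.16 times for GRF3, no wider than the spread among arrays of 1 group, which reached 1.25 times in the DEX arrays of GRF8 and 1.25 times in the Mock arrays of GRF3. The differences were -0.51 (SE 0.13) for GRF8 and -0.49 (SE 0.13) for GRF3. GRF9 (AT2G45480), described in Arabidopsis as a negative regulator of leaf growth, was at 209, 211 and 224 in Mock and at 206, 164 and 174 in DEX. Its groups were separate by only 1.01 times, with DEX replicate 1 close to Mock, and its difference was -0.25 (SE 0.13).

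GRF1, GRF2 and GRF4, all with a miR396 site, did not separate the groups. GRF1 (AT2G22840) was at 751, 705 and 804 in Mock and at 719, 678 and 673 in DEX, a difference of -0.13 (SE 0.11). GRF2 (AT4G37740) was at 408, 478 and 490.4 in Mock and at 456, 442 and 439.5 in DEX, a difference of -0.04 (SE 0.12). Both its sign and its size rested on single arrays, since the difference was 0.01 without Mock replicate 3 and -0.12 without Mock replicate 1. GRF4 (AT3G52910) was at 357, 339 and 418 in Mock and at 352, 333 and 356 in DEX, a difference of -0.09 (SE 0.12), which was -0.16 without Mock replicate 2 and -0.0038 without Mock replicate 3. For each of the 3, the difference was about as large as its SE or smaller.

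GIF1 (AT5G28640) was the 1 member with a difference above 0. It was at 423, 380.1 and 463 in Mock and at 438, 447 and 462 in DEX. All 3 DEX values lay inside the Mock range, and the difference was 0.09 (SE 0.12). Whether GIF1 differed from the GRF genes was not tested.

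**Figure D2:**
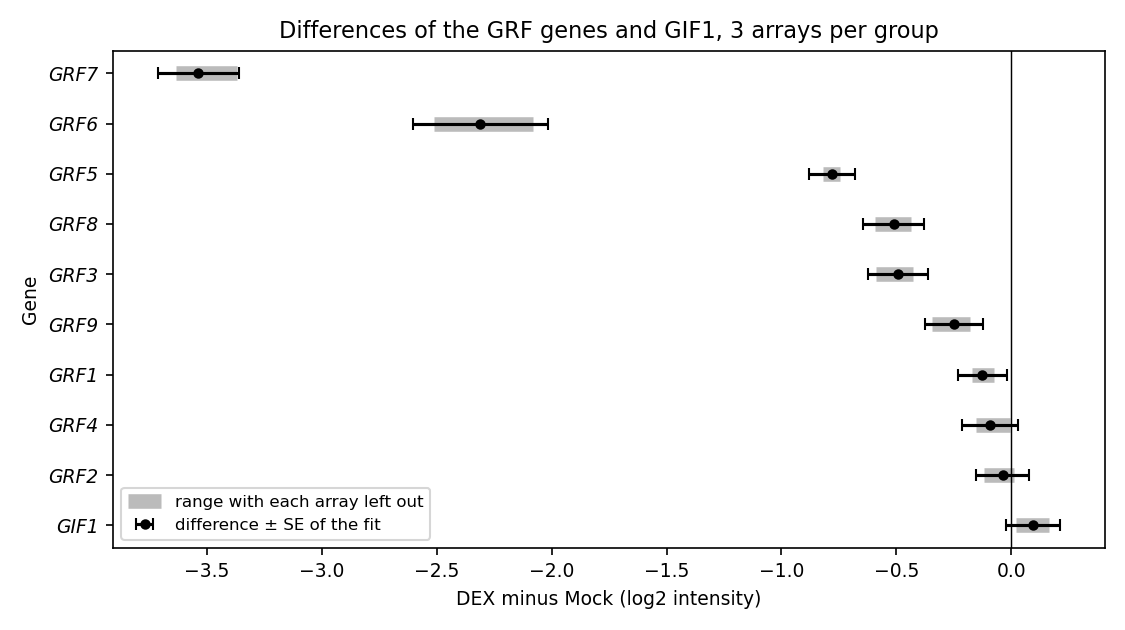
Difference between DEX and Mock (log2 intensity, DEX minus Mock) for the 10 members, ordered by size, as points with the SE of the limma fit, and grey bars for the range over the 6 fits that each leave out 1 array. GRF7 at -3.54 and GRF6 at -2.31 stand far to the left, GRF5 follows at -0.78, and the bars of GRF2 reach both sides of 0.

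By miR396 site, the picture turned on GRF7. The 2 GRF genes without the site, GRF5 and GRF6, lay at -0.78 and -2.31. Of the 7 with the site, GRF7 lay further below 0, at -3.54, and the other 6 lay between -0.51 (GRF8) and -0.04 (GRF2), all closer to 0 than GRF5 and GRF6. No test was made, since these are the values by which the family was chosen. The probed part of each transcript is not given in the sources used here, so cleaved and intact transcripts cannot be told apart, and signal shared between related GRF sequences was not tested.

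Within groups, the members leaned to one side on some arrays by small amounts. On DEX replicate 2, 10 of 10 members lay below their DEX mean, with a median deviation of -0.07 on the log2 scale, where 49.5% of all genes did so. On Mock replicate 3, 9 of 10 lay above their Mock mean, with a median deviation of 0.08. Of all genes on that array, 48.6% lay below theirs, so slightly more lay above than below. The widest single deviations belonged to GRF6, at 0.46 above on Mock replicate 3 and -0.44 on DEX replicate 2. GRF7 was also lowest on DEX replicate 2, at an intensity of 30.2.

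The genes around the GRF-GIF module gave no call. Of 58 listed genes, 57 were measured and 0 passed (limma, adjusted p under 0.05 over all genes, against 0.0521% of all genes called). An unadjusted limma p under 0.05 was found for 4 of the 57 and for 3401 of all 32627 genes. Their median difference was 0.04, close to the 0.01 of all genes. DEX arrays lay wholly below Mock for 6 and wholly above for 9 of the 57, where 9.2% and 8.74% of all genes did so. The listed genes lay between -0.81 and 1.01. In simulated data the same fit recovered only 51 of 100 changes of 1 on the log2 scale. A count of 0 calls therefore does not show that these genes were unchanged.

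The other cofactors also had small differences. GIF3 was at -0.21 (SE 0.15) and GIF2 at -0.06 (SE 0.13), with overlapping groups in both. Of the 13 SWI/SNF subunits, which GIF proteins bring to target genes, 5 were below 0 and 8 above, within -0.15 and 0.33. The smallest p values belonged to SWI3D at 0.33 (SE 0.15), the ATPase BRM at 0.19 (SE 0.10) and MINU2 at 0.20 (SE 0.13), with limma adjusted p of 0.517, 0.565 and 0.640.

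On the miR396 side, 7 of 8 genes were measured, and 5 were above 0 and 2 below. The list holds the miR396 loci, the target bHLH74 and the CIN-type TCP factors, of which TCP4 is known to promote miR396 transcription. TCP10 was at 0.28 (SE 0.14), with DEX values from 889 to 1056 against Mock values from 698 to 878. The factor bHLH74 was at 0.14 (SE 0.12), while TCP4, named for its role and outside the naming rule, was at 0.06 (SE 0.22). The MIR396A locus was at the bottom of the signal range, where its mean intensity was 0.881 in Mock and 1.30 in DEX (difference 0.57, SE 0.32). So dim a feature reads the precursor poorly, and the mature microRNA was not measured. MIR396B was not analysed here.

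Cell division genes, which GRF activity is known to favour, had a median near that of all genes. Of 9, 7 were above 0 and 2 below, with a median of 0.05 and 0 called. CYCD3;2, a D-type cyclin, was at -0.46 (SE 0.23), its relative CYCD3;3 at 0.22 (SE 0.12) and the mitotic kinase CDKB1;1 at 0.19 (SE 0.10). The mitotic cyclin CYCB1;1 was at 0.03 (SE 0.12), with limma adjusted p = 0.956; it lies outside the naming rule and was named after its value was seen.

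**Figure D3:**
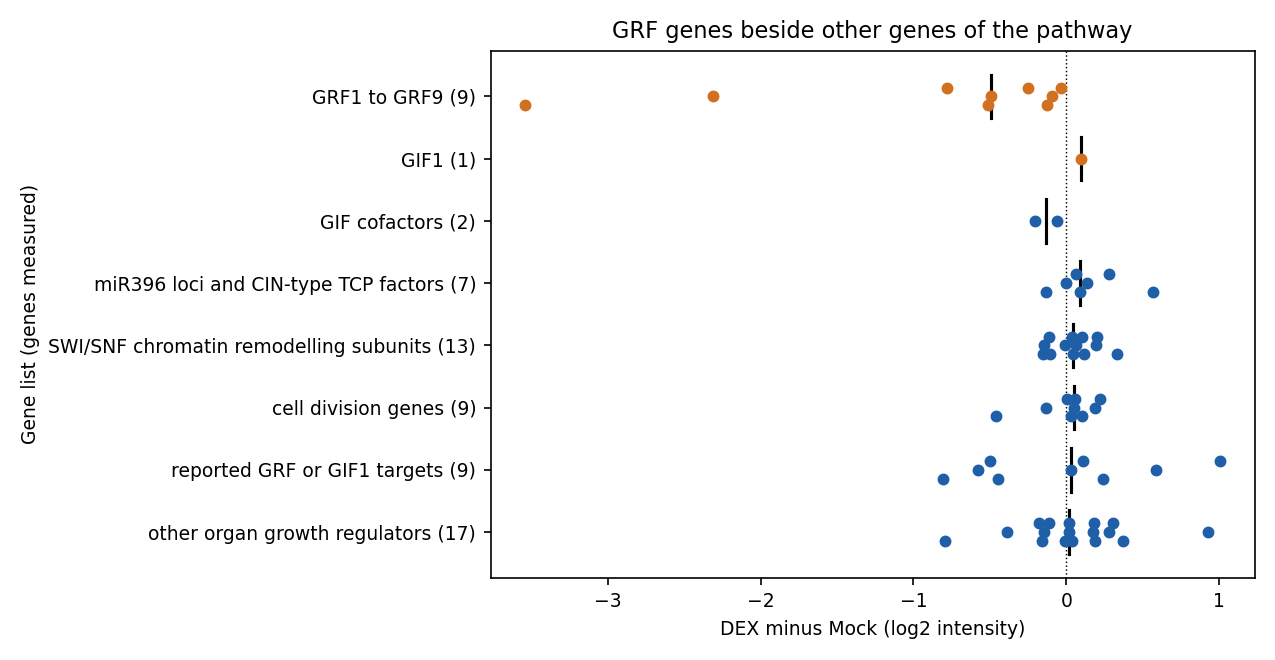
Difference between DEX and Mock (log2 intensity, DEX minus Mock) of each GRF gene and GIF1 (orange) and of the genes of 6 related lists (blue), with a vertical bar at each list's median and the number of measured genes in brackets. The medians of the related lists lie between -0.13 and 0.09, against -0.49 for the GRF genes, and their single genes lie between -0.81 and 1.01.

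Reported targets of GRF or GIF proteins lay on both sides of 0, with 4 below and 5 above and 0 of 9 called. DEX arrays lay wholly below Mock for 4 and wholly above for 1 of the 9, where 9.2% and 8.74% of all genes did so. The 4 were DREB2A, COL5, KNAT2 at -0.57 and HEC1 at -0.44, and KNAT2 and HEC1 lie outside the naming rule. The list was chosen with earlier results of these data known, and these counts were not tested. DREB2A, a stress transcription factor described in Arabidopsis as repressed by GRF7, was at 243, 206 and 174 in Mock and at 154, 144 and 139.6 in DEX. All 3 DEX arrays lay below Mock, with a difference of -0.50 (SE 0.15, limma adjusted p = 0.369). COL5, a CONSTANS-like factor reported as a GIF1 target, was at 333, 202 and 238 in Mock and at 152, 124 and 158 in DEX. Its difference was -0.81 (SE 0.22, limma adjusted p = 0.328), and with a trended and robust variance prior it passed (limma adjusted p = 0.0420). ARR4, a type-A cytokinin response regulator, was at 0.59 (SE 0.23, limma adjusted p = 0.469) with overlapping groups. The highest difference of the list was that of RD29A, at 1.01 (SE 0.44, limma adjusted p = 0.507), also with overlapping groups. RD29A was at 309, 153 and 135 in Mock and at 593, 312 and 277 in DEX. It is named for its size and lies outside the naming rule.

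Other organ growth regulators had 7 genes below 0 and 10 above, a median of 0.02 and 0 of 17 called. ROT3, a cytochrome P450 of brassinosteroid metabolism that promotes organ length, was at 116, 96.8 and 85.3 in Mock and at 178, 215 and 171 in DEX. The difference of 0.92 (SE 0.17) missed the threshold (limma adjusted p = 0.175). ROT3 passed with the trended and robust prior (adjusted p = 0.0121) and when genes below the median intensity were left out (adjusted p = 0.0172). NUB, a zinc-finger factor of stamen and carpel growth, was at 0.37 (SE 0.16), and ARGOS, an auxin-inducible growth gene, at -0.79 (SE 0.35) at dim mean intensities of 4.65 and 2.69. The growth regulator ANT, the next gene to GRF2 on its chromosome, was at 0.17 (SE 0.12); it is named for its place and lies outside the naming rule.

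No gene beside GRF7 on the chromosome had a difference of its size. GRF7 ranked 2 of 32627 genes from the lowest difference, so hardly any gene at any place could have matched it. The 3 measured genes on either side ranged from -0.41 to 0.57, and the groups overlapped for all 6. The nearest were AT5G53650 at 0.20 (SE 0.16) and AT5G53670 at 0.57 (SE 0.33), the latter dim at mean intensities of 1.96 and 2.92. The others were AT5G53640 at 0.36 (SE 0.33), AT5G53620 at 0.03 (SE 0.11), AT5G53680 at -0.17 (SE 0.22) and AT5G53700 at -0.41 (SE 0.21).

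Around GRF5, the 6 nearest measured genes ranged from -0.73 to 0.07. The genes next to it, AT3G13950 and AT3G13965, were at -0.34 (SE 0.72) and -0.06 (SE 0.13). AT3G13980, the third gene on one side, was at -0.73 (SE 0.14), close in size to GRF5 itself, and its groups did not overlap. It did not pass (limma adjusted p = 0.200). AT3G13940 was at 0.07 (SE 0.17), AT3G13930 at -0.15 (SE 0.11) and APG12B at -0.47 (SE 0.25). Over the 44 neighbours of all 10 members, 0 were called. DEX arrays lay wholly below Mock for 4 and wholly above for 2 of the 44, where 9.2% and 8.74% of all genes did so.

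**Figure D4:**
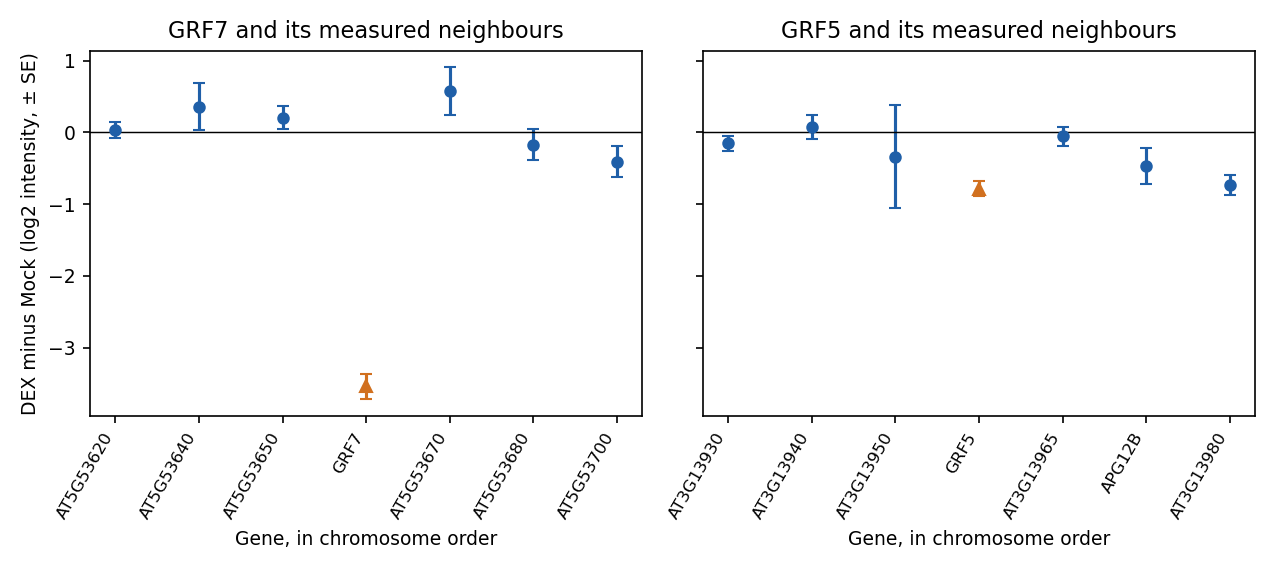
Difference between DEX and Mock (log2 intensity, DEX minus Mock, with SE) for GRF7 (left) and GRF5 (right), shown as triangles, and for the 3 nearest measured genes on each side, shown as circles in chromosome order. The GRF7 neighbours lie between -0.41 and 0.57, far above GRF7 at -3.54, while AT3G13980 lies at -0.73 beside GRF5 at -0.78.

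The genes whose profile was most like that of GRF7 were found by the root mean square (RMS) difference over the 6 arrays, after each gene was centred on its own mean. The closest were AT1G60060 at 0.21 on the log2 scale and AT4G19380 at 0.22. They were followed by scpl10, a serine carboxypeptidase-like gene, at 0.32, the wall-loosening expansin gene EXPA5 at 0.33 and AT5G03700 at 0.38. AT1G60060 was at 286, 261 and 273 in Mock and at 39.0, 23.8 and 32.7 in DEX, with its lowest value on DEX replicate 2, as for GRF7. EXPA5 was at 209, 207 and 212 in Mock and at 17.8, 23.8 and 16.8 in DEX, with its highest DEX value on replicate 2. The measure is governed by the DEX difference itself, and all 5 genes are among the 17 called over all genes. No other GRF gene was among the 5.

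**Figure D5:**
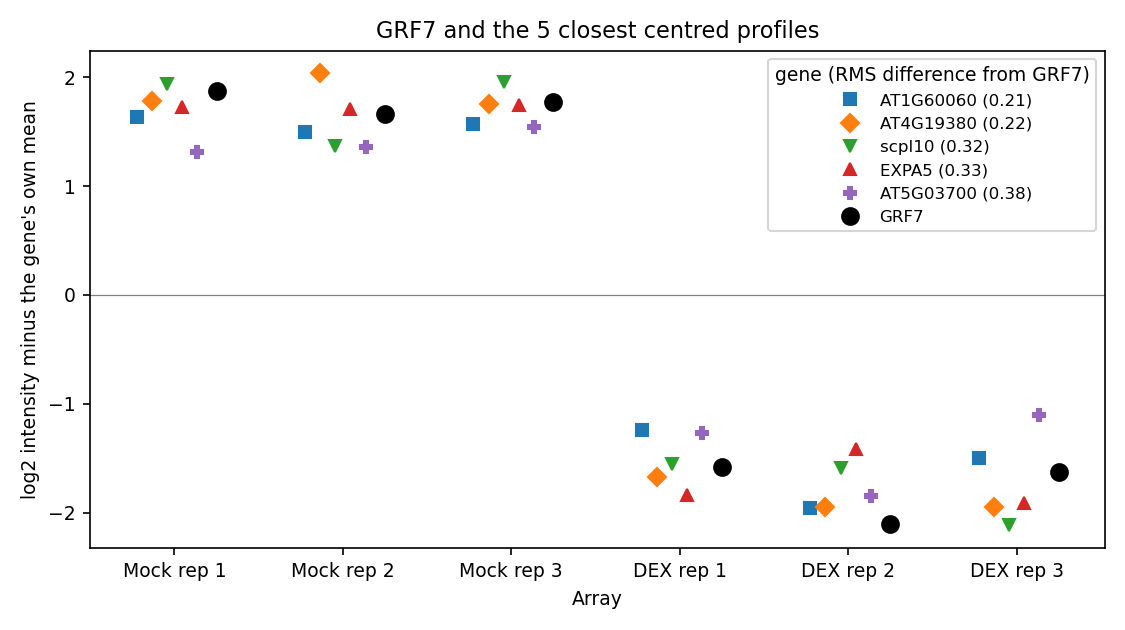
Log2 intensity minus the gene's own mean on each of the 6 arrays, for GRF7 (black circles) and the 5 genes with the smallest RMS difference from it, whose values stand in brackets in the key. All 6 genes lie above their means on the Mock arrays and below on the DEX arrays, and GRF7 and AT1G60060 both have their lowest value on DEX replicate 2.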

How the data were processed

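Arrays were 1-colour (Cy3) NimbleGen arrays of total RNA, per the labels' protocols. The authors deposited RMA intensity values, per the submitters' processing notes; their linear scale was read from their range, 0.482 to 3642, and neither the RMA version nor the probe design is stated in the labels. Of 39640 rows, 2522 held no value. The log2 of each intensity was taken; for the 3602 loci with several features the brightest stood for the gene, which left 32627 genes, with no filter. DEX was compared with Mock, 3 arrays each, with limma 3.58.1 in R 4.3.3 (eBayes, default prior, two-sided, Benjamini-Hochberg over all genes, threshold 0.05). RefSeq (TAIR10.1) gave symbols and gene order and matched 31993 loci. Members, lists, tests and the naming rule were chosen with earlier results of these data known. The naming rule took all members, up to 3 genes of each list by unadjusted p, the neighbours of GRF7 and GRF5, and the 5 profiles closest to GRF7; genes named outside it are said to be. The fit was tested on simulated data, with changes placed in genes above the median intensity. It recovered 99 of 100 changes of 2 and 51 of 100 changes of 1 on the log2 scale, with 11 false calls. The trended and robust prior recovered 100 of 100 of either size, with 6 false calls. The simulated spread of a gene depended on its mean intensity alone, which is what a trended prior assumes. The simulation therefore cannot rank the priors for the measured data. The alternatives were a replicate block, a trended and robust prior, a filter on dim genes, quantile normalization, 16 added to each intensity, other uses of features and leaving out each array. The design mentions independent sets without saying what was independent, so the spread behind each p-value may be partly technical. Precision is limited by having 3 arrays a group. No sequence is shown.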

Additional observations from a re-analysis of the deposited data

How the results depend on the processing

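Over 13 other settings (12 for GRF6, which the filter on dim genes removes), each member kept the sign of its difference, except GRF2 without Mock replicate 3 (0.01). Several of these settings could not alter a member's difference and returned the main value by construction. They were the replicate block, the trended and robust prior, the filter on dim genes and the other uses of features. With 16 added to each intensity, GRF6 moved to -1.35 and GRF7 to -3.08. With quantile normalization or any 1 array left out, every member moved by less than 1 SD between arrays. The count of genes called over all genes depended on the settings far more. Against 17, the trended and robust prior gave 431. There were 282 among genes above the median intensity, 204 with 16 added and 0 with the replicate block (3513 at an unadjusted p under 0.05). No gene was called (0) with any 1 array left out, at 2806 to 3372 genes with an unadjusted p under 0.05. All 17 genes were also called with the trended and robust prior and with 16 added. Pathway calls numbered 0 of 57, 2 with the trended and robust prior (ROT3 higher, COL5 lower) and 1 among genes above the median (ROT3), and 0 with the replicate block and with each array left out. Deviations of same-numbered Mock and DEX arrays correlated across genes at 0.03, 0.06 and 0.06, too weakly to pair them, although every array correlated best with its own number. GRF6 was below the table's median intensity of 72.9 on every array and GRF7 on the DEX arrays. The size of both differences depended on how dim values were handled. No background level is given here.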
